A study of Mus musculus with 7 samples.

Results

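The Cyp3a family was followed in isolated mouse hepatocytes, the parenchymal cells of the liver, in 4 ALAS1/2-KO libraries and 3 wild-type (WT) libraries. Its members were chosen by symbol: Cyp3a11, Cyp3a13, Cyp3a16, Cyp3a25, Cyp3a41a, Cyp3a41b, Cyp3a44 and Cyp3a59. Of these 8 genes, 5 had a value among the 12151 genes of the expression table. Cyp3a16, Cyp3a41a and Cyp3a41b were not analysed here. The ALAS1/2-KO hepatocytes carried a conditional Alas1 allele whose exons 4-5 are removed by Cre, were labelled with tamoxifen as treatment, and came from a design in which Alas2 was lowered further with GalNAc-conjugated siRNAs, which hepatocytes take up. The WT hepatocytes had a genotype label of WT and no treatment. Not given in the sources used here are the Cre driver, the sex and age of the mice, and whether WT mice received a control siRNA or carried the conditional allele. Genotype, tamoxifen and siRNA therefore cannot be told apart in any difference below, and libraries are not stated to come from separate animals.

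Cyp3a enzymes are cytochromes P450 of the endoplasmic reticulum. Each holds a heme group that activates oxygen, receives electrons from the reductase Por, and oxidises steroids, bile acids and many drugs. In liver the genes are switched on by ligand-bound nuclear receptors, chiefly PXR (Nr1i2) and CAR (Nr1i3), on a base level set by liver factors such as Hnf4a. ALAS1 makes the first product of heme synthesis in most tissues, and ALAS2 does so in red cell precursors. Cyp3a11 is the main form of adult mouse liver and the usual counterpart of human CYP3A4, while Cyp3a41a, Cyp3a41b and Cyp3a44 are predominantly expressed in females and Cyp3a16 around birth.

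In the GENCODE annotation of mm10, 7 of the 8 genes lay within 677 kb on chromosome 5, called the cluster here. Cyp3a57 (chr5:145345279-145390926, plus strand), outside the rule and without a value, lies beyond Cyp3a16. It was included in the searches of promoters and shared windows below. Cyp3a16 (chr5:145436309-145469723), Cyp3a41b (chr5:145558664-145584730), Cyp3a41a (chr5:145694049-145720136), Cyp3a44 (chr5:145773983-145805874), Cyp3a11 (chr5:145854426-145879964) and Cyp3a25 (chr5:145977194-146009618) are on the minus strand. Cyp3a59 (chr5:146079257-146113287) ends the row on the plus strand, so it and Cyp3a25 run in opposite directions. Cyp3a13 (chr5:137892932-137921619, minus strand) lies apart, 7.51 Mb from the cluster. In coding sequence Cyp3a59 was 97.5% identical to Cyp3a25, and Cyp3a44 was 94.9% identical to Cyp3a11 and 95.8% to Cyp3a41a. Between Cyp3a11 and Cyp3a25 the identity was 76.1%, between Cyp3a11 and Cyp3a59 75.7%, and between Cyp3a11 and Cyp3a13 76.6%.

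The promoters are shown because these close relatives had fold changes of different size or sign, as described after them. Each window is the 250 bases before the RefSeq start site (build GRCm38.p6), printed without bases that lie inside the GENCODE gene (110 for Cyp3a11, 1 for Cyp3a59) and read 5′ to 3′ on the gene's own strand. Capitals mark AGGTCA and AGTTCA on either strand (read as TGACCT and TGAACT on the other), the half-sites from which nuclear receptor elements are built. All 8 members had an entry, and the 5 with values are printed.
Cyp3a11, chr5:145879965-145880104, minus strand: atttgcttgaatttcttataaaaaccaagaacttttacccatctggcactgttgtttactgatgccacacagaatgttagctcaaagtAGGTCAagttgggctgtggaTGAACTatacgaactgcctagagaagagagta
Cyp3a44, chr5:145805875-145806124, minus strand: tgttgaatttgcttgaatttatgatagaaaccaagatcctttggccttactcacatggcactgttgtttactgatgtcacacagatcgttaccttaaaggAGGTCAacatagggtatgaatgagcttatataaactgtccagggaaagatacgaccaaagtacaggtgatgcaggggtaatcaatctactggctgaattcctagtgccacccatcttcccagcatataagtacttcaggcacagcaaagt
Cyp3a25, chr5:146009619-146009868, minus strand: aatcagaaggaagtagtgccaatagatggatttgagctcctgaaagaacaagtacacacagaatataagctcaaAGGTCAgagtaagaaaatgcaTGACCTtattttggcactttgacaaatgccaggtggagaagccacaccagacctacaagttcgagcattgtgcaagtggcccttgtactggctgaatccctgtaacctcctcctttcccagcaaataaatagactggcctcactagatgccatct
Cyp3a59, chr5:146079008-146079256, plus strand: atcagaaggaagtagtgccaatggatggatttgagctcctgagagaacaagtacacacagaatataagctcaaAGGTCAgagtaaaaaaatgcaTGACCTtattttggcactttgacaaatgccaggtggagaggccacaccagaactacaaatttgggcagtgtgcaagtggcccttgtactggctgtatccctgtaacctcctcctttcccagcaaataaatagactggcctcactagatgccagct
Cyp3a13, chr5:137921620-137921869, minus strand: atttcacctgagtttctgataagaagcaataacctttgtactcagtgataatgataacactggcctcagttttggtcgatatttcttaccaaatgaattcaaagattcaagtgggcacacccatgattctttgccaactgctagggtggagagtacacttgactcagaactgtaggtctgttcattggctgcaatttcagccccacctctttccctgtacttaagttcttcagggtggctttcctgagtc

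The full windows of Cyp3a59 and Cyp3a25 were 94.8% identical, and both held AGGTCA once on each strand, shifted by 1 base. Those of Cyp3a44 and Cyp3a11 were 71.7% identical. The window of Cyp3a11 held 1 AGGTCA and 1 AGTTCA, that of Cyp3a44 held 1 AGGTCA, and that of Cyp3a13 neither. Of 27025 promoter windows of the same length, 13.8% held AGGTCA and 11.9% held AGTTCA. The spelled repeats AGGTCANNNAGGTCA, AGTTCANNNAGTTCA, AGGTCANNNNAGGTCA, AGTTCANNNNAGTTCA, TGACCTNNNNNNAGGTCA, TGAACTNNNNNNAGTTCA and AGGTCANAGGTCA were searched on both strands. No Cyp3a window held them, and each was in at most 0.037% of all windows. Repeats that join AGGTCA with AGTTCA were not searched. With repeats this rare, their absence does not show that receptor elements are lacking. The distal enhancers of these genes lie outside the windows.

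Near-identical copies limit how well reads can be assigned. Of all 50-base windows in the Cyp3a25 transcript, 26.8% also occurred in a transcript of another Cyp3a gene, nearly all in Cyp3a59 (25.0%). For Cyp3a59 the share was 28.0%, of which Cyp3a25 made up 24.7%. Cyp3a44 shared 26.5% of its windows, most often with Cyp3a41a (11.5%), and Cyp3a11 shared 14.8%. Cyp3a13 shared none, and Cyp3a41a and Cyp3a41b shared 98.6% and 93.5%. How the authors treated reads that fit several genes is not given, so values of the clustered members are uncertain to that extent. The value of Cyp3a13 is not uncertain through other Cyp3a genes. Transcripts of genes outside Cyp3a were not searched for any member.

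The libraries held 27933939 to 30195635 recovered reads in ALAS1/2-KO and 22916097 to 34048680 in WT, so that 1 read was worth 0.0302 to 0.0330 and 0.0293 to 0.0522 CPM (counts scaled to library size). Mitochondrial genes took 16.8% to 27.3% of reads in ALAS1/2-KO, against 31.9% to 43.2% in WT. Alas2 fell to 0.44 ± 0.26 CPM in ALAS1/2-KO, against 11.3 ± 5.18 CPM in WT (SD, n = 4 and 3; log2 fold change -4.51; limma adjusted p = 0.00270). It reached 1 CPM in WT alone and so was tested only because it was high there. Red cell markers were lower as well, as given below, and whether they and Alas2 fell together was not tested. Alas1 had 322 ± 31.7 CPM in ALAS1/2-KO and 209 ± 109 CPM in WT (adjusted p = 0.277), but a value for the whole gene does not check a deletion of exons 4-5. The 8 hepatocyte markers summed to 80808 to 89010 CPM in ALAS1/2-KO and to 122120 to 129090 CPM in WT, most of it Alb, which fell to 53409 ± 2537 CPM in ALAS1/2-KO, against 97897 ± 3431 CPM in WT (limma adjusted p = 0.00606). The median log2 fold change of the 8 was 0.31. In 4 of them all ALAS1/2-KO libraries lay above WT, and in 1 all lay below. Of all genes tested, 11.3% lay above and 11.4% below in this way. The 31 measured markers of other liver cells, out of 40 listed, summed to 365 and 997 CPM in ALAS1/2-KO replicates 1 and 2 and to 2090 and 1838 CPM in replicates 3 and 4, against 1469 to 2001 CPM in WT. By type, in ALAS1/2-KO against WT, the sums were 247 to 1568 against 963 to 1306 CPM for Kupffer cells, 71.0 to 312 against 296 to 363 CPM for endothelial cells, and 41.4 to 200 against 180 to 324 CPM for stellate cells (Acta2 not in the table). They were 2.72 to 5.35 against 12.1 to 21.1 CPM for cholangiocytes (Krt19, Krt7, Epcam and Cftr not in the table) and 2.75 to 7.79 against 14.9 to 21.7 CPM for B and T cells (Ms4a1, Cd3d, Cd3e and Cd3g not in the table), and 2.75 to 7.39 against 11.3 to 41.3 CPM for red cells. With the summed level of other cell types as a covariate, the count of changed Cyp3a members was 3, Cyp3a44 included, as in the results below. It was also 3 with scaling that ignored mitochondrial genes and the 20 most abundant. Red cells are left out of that summed level, in which Kupffer cell markers weigh most. The count with this covariate therefore does not address each cell type. In bulk libraries, fewer cells of a type and less RNA per cell cannot be told apart.

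Per kilobase of transcript, the order of levels was Cyp3a11, Cyp3a25, Cyp3a13, Cyp3a59, Cyp3a44 in both groups. Cyp3a11 averaged 1654 ± 206 CPM per kb in ALAS1/2-KO and 1006 ± 403 CPM per kb in WT (SD, n = 4 and 3, as for all values that follow). Cyp3a25 averaged 226 ± 39.3 CPM per kb in ALAS1/2-KO and 143 ± 32.6 CPM per kb in WT. Cyp3a13 averaged 54.2 ± 3.19 CPM per kb in ALAS1/2-KO and 34.0 ± 1.63 CPM per kb in WT. The lower pair stood far below these. Cyp3a59 averaged 14.4 ± 3.0 CPM per kb in ALAS1/2-KO and 3.74 ± 2.26 CPM per kb in WT. Cyp3a44 averaged 0.241 ± 0.108 CPM per kb in ALAS1/2-KO and 2.52 ± 1.56 CPM per kb in WT. The ranges of the members did not overlap each other within ALAS1/2-KO, whereas in WT those of Cyp3a59 and Cyp3a44 did. Cyp3a11 alone made up 85.8% of the summed Cyp3a CPM in ALAS1/2-KO and 84.9% in WT.

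**Figure D1:**
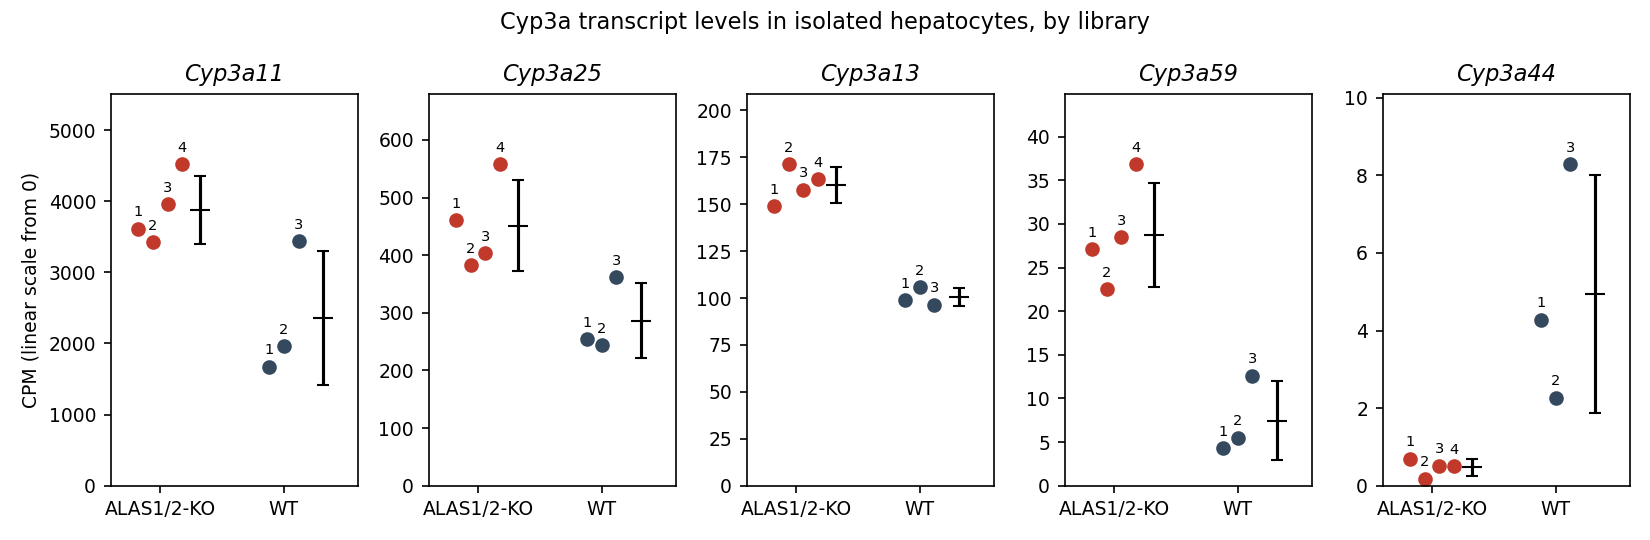
CPM of each Cyp3a member in the 4 ALAS1/2-KO (left) and 3 WT libraries, on linear axes from 0 that differ between panels. Numbers are replicates and bars are mean ± SD. Cyp3a13, Cyp3a25 and Cyp3a59 stood higher across ALAS1/2-KO than across WT without overlap, Cyp3a44 stood lower without overlap, and for Cyp3a11 WT replicate 3 reached the ALAS1/2-KO range.

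Whether the transcripts of these heme enzymes differed in ALAS1/2-KO was read from a limma fit over all 12105 genes tested (adjusted p under 0.05), in which 5.10% of genes changed, 2.91% upwards and 2.19% downwards. Of the 5 Cyp3a members tested, Cyp3a13 and Cyp3a59 rose and Cyp3a44 fell. Cyp3a11 and Cyp3a25 had positive fold changes that did not pass. Cyp3a44 entered the fit only through its WT level. Of the other 4, Cyp3a13, Cyp3a25 and Cyp3a59 were higher in ALAS1/2-KO without overlap between groups, as were 11.3% of all genes tested.

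Cyp3a11, the main form of adult liver, had 3612, 3422, 3955 and 4521 CPM in ALAS1/2-KO replicates 1 to 4, against 1674, 1964 and 3435 CPM in WT replicates 1 to 3. WT replicates 1 and 2 lay well below every ALAS1/2-KO library, whereas WT replicate 3 lay just above ALAS1/2-KO replicate 2, so the groups overlapped. The log2 fold change was 0.78 (SE 0.24, 95% interval 0.24 to 1.33; limma adjusted p = 0.104), a ratio of 1.72. The exact two-sided permutation test gave p = 0.0571, where 0.0286 is the smallest p that 4 against 3 libraries allow. Without WT replicate 3 the log2 fold change was 1.09 (limma adjusted p = 0.0224). The same library had the lowest Alas1 of the 7, at 83.5 CPM, against 280 and 265 CPM in WT replicates 1 and 2. It also had the most recovered reads of the 7. Its mitochondrial share was 31.9%, against 38.4% and 43.2% in WT replicates 1 and 2. Whether any of these traits is linked to its Cyp3a11 level was not tested. Cyp3a11 ranked 22 to 30 among all listed genes by CPM in ALAS1/2-KO and 28 to 56 in WT.

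Cyp3a25, a second form of adult liver, had 461, 382, 403 and 558 CPM in ALAS1/2-KO replicates 1 to 4, against 254, 244 and 362 CPM in WT replicates 1 to 3. Every ALAS1/2-KO library exceeded every WT library, with a narrow gap between ALAS1/2-KO replicate 2 and WT replicate 3 (exact permutation p = 0.0286, two-sided). The log2 fold change of 0.66 (SE 0.18, 95% interval 0.25 to 1.08) did not pass in limma (adjusted p = 0.0790). Without WT replicate 3 it was 0.84 (limma adjusted p = 0.04995).

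Cyp3a13, the member outside the cluster, which in mice is also expressed in intestine, had 149, 171, 158 and 163 CPM in ALAS1/2-KO replicates 1 to 4, against 99.0, 106 and 96.5 CPM in WT replicates 1 to 3. It varied least between replicates, with a coefficient of variation of 5.89% in ALAS1/2-KO and 4.80% in WT, and the groups were far apart. The log2 fold change was 0.67 (SE 0.09, 95% interval 0.46 to 0.89; limma adjusted p = 0.00873), a ratio of 1.59. It passed when any 1 library was left out, with adjusted p between 0.00743 and 0.0487. The fold change of Cyp3a13 lay between those of Cyp3a25 and Cyp3a11, and its SE was smaller (0.09, against 0.18 and 0.24).

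Cyp3a59, the close relative of Cyp3a25, had 27.1, 22.5, 28.5 and 36.8 CPM in ALAS1/2-KO replicates 1 to 4, against 4.28, 5.48 and 12.6 CPM in WT replicates 1 to 3. In recovered reads these were 897, 732, 932 and 1117 in ALAS1/2-KO, against 82, 138 and 430 in WT. All ALAS1/2-KO libraries lay above WT, and WT replicate 3 stood above the other WT libraries by 2.58 times. The log2 fold change was 2.07 (SE 0.36, 95% interval 1.23 to 2.92; limma adjusted p = 0.0269), a 4.21-fold rise. The fold change stayed between 1.76 and 2.53 when any 1 library was left out. The adjusted p was above 0.05 in 5 of these fits, at 0.0503 without ALAS1/2-KO replicate 2, 0.0568 without replicate 3, 0.0652 without replicate 4, 0.0644 without WT replicate 1 and 0.123 without WT replicate 2.

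Cyp3a44, a form known as female-predominant in mouse liver, went the other way. It had 0.695, 0.185, 0.520 and 0.495 CPM in ALAS1/2-KO replicates 1 to 4, against 4.28, 2.26 and 8.29 CPM in WT replicates 1 to 3. These rest on 23, 6, 17 and 15 reads in ALAS1/2-KO, against 82, 57 and 283 in WT, so all ALAS1/2-KO libraries were lower and the level was low in both groups. The log2 fold change was -3.13 (SE 0.52, 95% interval -4.32 to -1.94; limma adjusted p = 0.0190), 8.74-fold lower in ALAS1/2-KO. Cyp3a44 reached the minimum of 1 CPM in 3 libraries through the WT group alone, so it could only be tested because it was high there. Without WT replicate 1 the adjusted p was 0.0662 and without WT replicate 3 it was 0.0563.

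**Figure D2:**
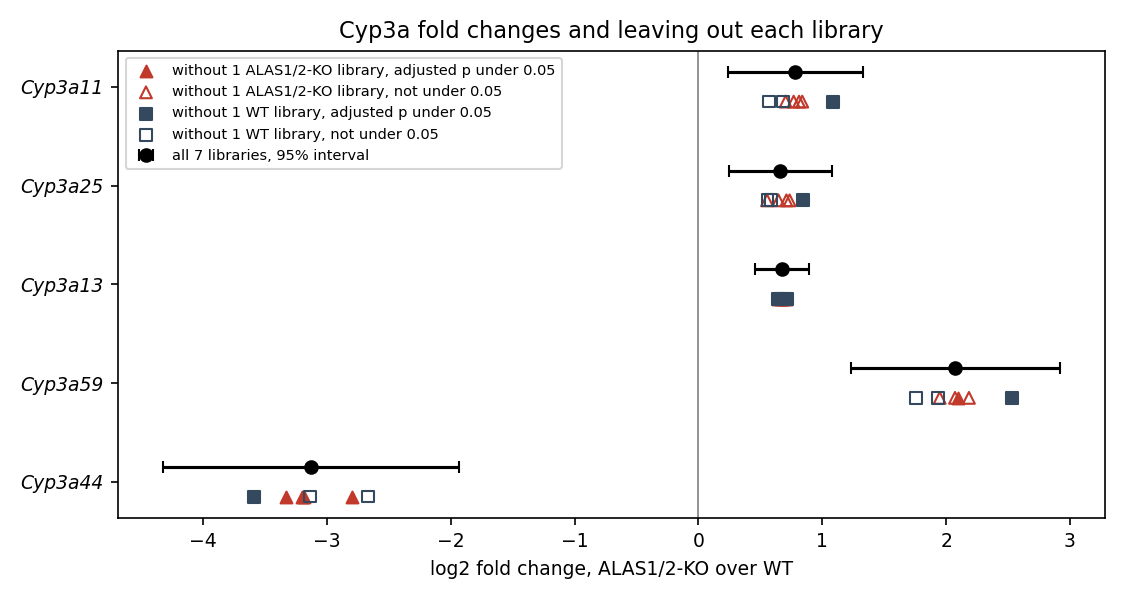
Log2 fold change (ALAS1/2-KO over WT) of each Cyp3a member with its 95% interval over all 7 libraries (black), and below it the values when 1 ALAS1/2-KO library (triangles) or 1 WT library (squares) was left out. Filled symbols have a limma adjusted p under 0.05: all 7 for Cyp3a13, against 1 for Cyp3a11 and 1 for Cyp3a25, both without WT replicate 3. No value changed sign.

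Summed over the 5 members, Cyp3a transcripts came to 4250, 3999, 4545 and 5280 CPM in ALAS1/2-KO replicates 1 to 4, against 2035, 2322 and 3914 CPM in WT replicates 1 to 3. The mean was 4518 ± 555 CPM in ALAS1/2-KO and 2757 ± 1012 CPM in WT, and the sum was not tested. Without Cyp3a11 it was 641 ± 82.9 CPM in ALAS1/2-KO and 399 ± 69.1 CPM in WT. Replicates of 1 group differed together across part of the family. Cyp3a11, Cyp3a25 and Cyp3a59 were all highest in replicate 4 and lowest in replicate 2 of ALAS1/2-KO, and all highest in replicate 3 of WT. Cyp3a13 followed another order, with its highest value in replicate 2 of ALAS1/2-KO and its lowest in replicate 3 of WT. WT replicate 3 exceeded the mean of the other WT libraries by 1.89 times for Cyp3a11, 1.45 times for Cyp3a25 and 2.53 times for Cyp3a44, but stood at 0.943 times for Cyp3a13.

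Ratios between members within a library do not depend on how the library was scaled. Cyp3a59 stood at 5.89%, 5.89%, 7.06% and 6.60% of Cyp3a25 in ALAS1/2-KO replicates 1 to 4, against 1.68%, 2.25% and 3.48% in WT replicates 1 to 3. The groups did not overlap, and the ratio was higher in every ALAS1/2-KO library. Cyp3a44 stood at 0.0193%, 0.0054%, 0.0131% and 0.0109% of Cyp3a11 in ALAS1/2-KO, against 0.256%, 0.115% and 0.241% in WT. Cyp3a44 was tested only because it was high in WT, so its ratios are a description with no test.

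Of the 6 pairs among the other members, the 3 with Cyp3a59 had ratios that did not overlap between groups. Each had an exact permutation p of 0.0286, the smallest possible, and 0.0571 after Benjamini-Hochberg adjustment over the 6 pairs, which did not pass. For Cyp3a25 over Cyp3a59 the log2 ratio differed by -1.41 (3.98 ± 0.13 in ALAS1/2-KO and 5.39 ± 0.52 in WT). For Cyp3a11 over Cyp3a59 it differed by -1.29 (7.09 ± 0.13 in ALAS1/2-KO and 8.38 ± 0.26 in WT). The remaining ratios, among Cyp3a11, Cyp3a13 and Cyp3a25, overlapped. Their log2 differences were 0.11 for Cyp3a11 over Cyp3a13 (exact permutation p = 0.714), 0.12 for Cyp3a11 over Cyp3a25 (exact permutation p = 0.486) and 0.01 for Cyp3a13 over Cyp3a25 (exact permutation p = 0.971). With this few libraries a p above the threshold does not show that those members responded alike.

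**Figure D3:**
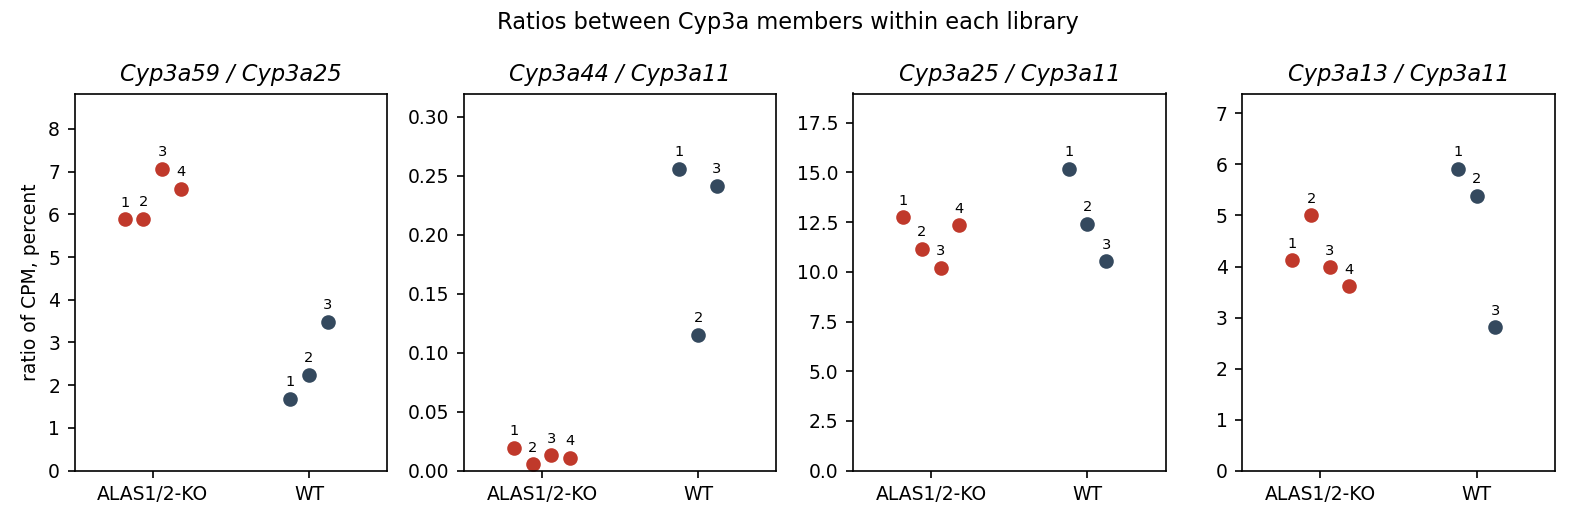
CPM of one Cyp3a member as a percent of another within each library, ALAS1/2-KO left and WT right, on linear axes from 0, with replicate numbers. Cyp3a59 over Cyp3a25 was higher in every ALAS1/2-KO library (5.89% to 7.06%) than in WT (1.68% to 3.48%), Cyp3a44 over Cyp3a11 was lower in every one, and the ratios of Cyp3a25 and Cyp3a13 to Cyp3a11 overlapped.

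The other coding genes around the members did not pass the test. In limma, none of the 11 genes tested within 300 kb of the cluster changed (1 at an unadjusted p under 0.05; none by limma voom on recovered reads), with log2 fold changes of -0.30 to 0.29. None of the 19 within 300 kb of Cyp3a13 changed either (5 at an unadjusted p under 0.05; none by voom), with log2 fold changes of -0.74 to 0.41. Of all 12105 genes tested, 2869 had an unadjusted limma p under 0.05, so these counts are no result about the loci. Inside the cluster, Cyp3a44 fell and its neighbour Cyp3a11 had a positive fold change, although the genes lie beside each other on the same strand.

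**Figure D4:**
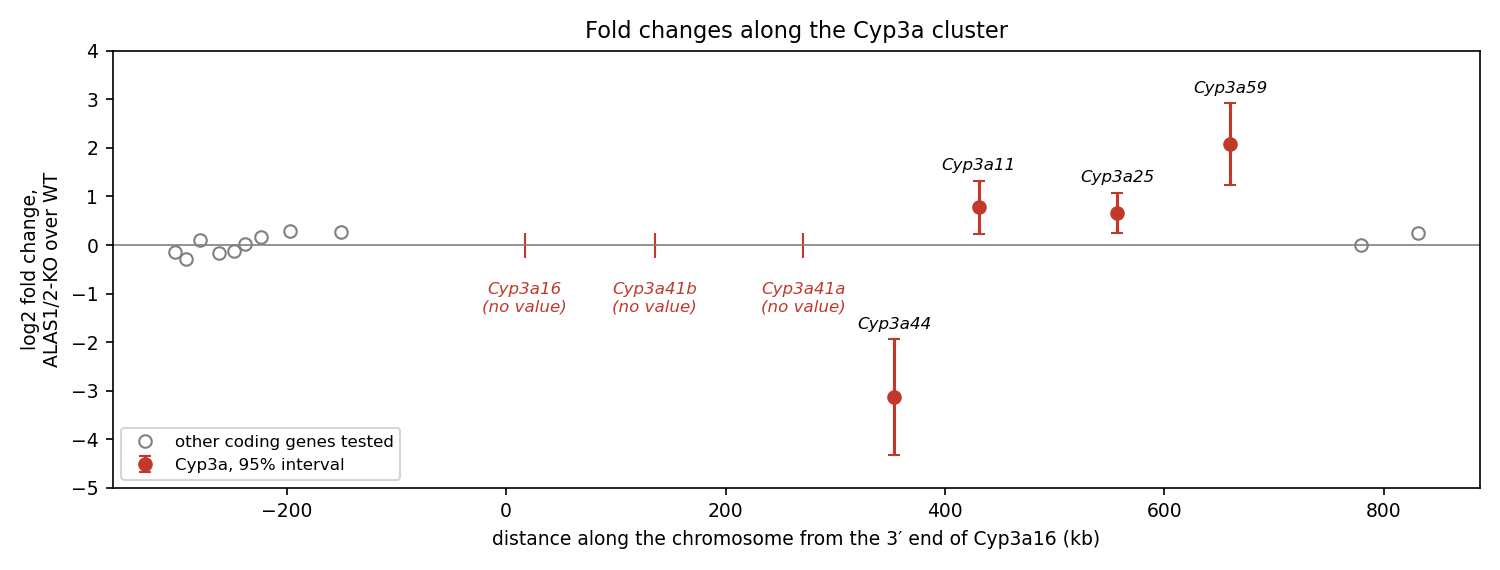
Log2 fold change (ALAS1/2-KO over WT) of the genes along the Cyp3a cluster, by distance in kb from the 3′ end of Cyp3a16. Filled points are Cyp3a members with 95% intervals, open points other coding genes tested within 300 kb, and ticks the 3 members with no value. Open points lie between -0.30 and 0.29, whereas Cyp3a44 lies at -3.13 and Cyp3a59 at 2.07.

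Of the 19 receptors and factors that act on Cyp3a genes and were tested, 1 rose, with a median log2 fold change over the list of 0.14, against -0.02 over all genes tested. A count of 1 in 19 is close to the 5.10% called over all genes, and so is no result about the list. This was Foxa3, a forkhead factor of the liver, with 36.5 ± 1.84 CPM in ALAS1/2-KO and 24.4 ± 5.22 CPM in WT (log2 fold change 0.60, limma adjusted p = 0.0443). It missed the threshold without ALAS1/2-KO replicate 2 (adjusted p = 0.0889), 3 (0.0874) or 4 (0.0840) and without WT replicate 1 (0.142) or 3 (0.111). PXR itself, Nr1i2, had 83.1, 55.1, 80.7 and 98.0 CPM in ALAS1/2-KO replicates 1 to 4, against 71.9, 60.0 and 45.1 CPM in WT replicates 1 to 3. The groups overlapped (limma adjusted p = 0.289). CAR, Nr1i3, averaged 96.9 ± 17.4 CPM in ALAS1/2-KO and 110 ± 21.3 CPM in WT (limma adjusted p = 0.561). Both receptors were named for their role and stand outside the rule for named genes.

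Of the 6 electron donors and membrane partners of microsomal P450, 1 rose, against 2.91% of all genes tested. Por, the reductase that passes electrons from NADPH to every Cyp3a enzyme, had 595, 403, 758 and 806 CPM in ALAS1/2-KO replicates 1 to 4, against 319, 194 and 154 CPM in WT replicates 1 to 3. The groups did not overlap, and the log2 fold change was 1.54 (SE 0.31; limma adjusted p = 0.0353). Leaving out ALAS1/2-KO replicate 3 or 4 raised the adjusted p to 0.0724 or 0.0805, and leaving out WT replicate 2 or 3 raised it to 0.154 or 0.0846. Median log2 fold change over the 6 was -0.09, and the cytochrome b5 genes Cyb5a and Cyb5b had log2 fold changes of -0.28 and -0.26 that did not pass.

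Other genes known as targets of PXR and CAR moved in both directions. Of 24 listed, 20 were tested, 8 rose and 3 fell, and the median log2 fold change was 0.41. Among all genes tested, 2.91% rose and 2.19% fell. Cyp2b10, the standard CAR target of mouse liver, had 80.6, 113, 100.4 and 93.5 CPM in ALAS1/2-KO replicates 1 to 4, against 14.0, 9.05 and 10.3 CPM in WT replicates 1 to 3. It rose 8.74-fold (log2 fold change 3.13, SE 0.17; limma adjusted p = 0.000114). Cyp2c55, another P450, averaged 10.7 ± 1.33 CPM in ALAS1/2-KO and 2.26 ± 0.35 CPM in WT (log2 fold change 2.21, limma adjusted p = 0.000781). Ces2a, a carboxylesterase, averaged 695 ± 70.8 CPM in ALAS1/2-KO and 202 ± 41.2 CPM in WT (log2 fold change 1.79, limma adjusted p = 0.00119). The glutathione transferases Gstm1 and Gstm3, the bilirubin conjugating enzyme Ugt1a1 and the transporters Abcc2 and Slco1a4 also rose. Gsta2, the drug efflux pump gene Abcb1a and the retinal dehydrogenase Aldh1a1 fell, and Gsta2 was tested only because of its WT level. Without 1 library, 5 (WT replicate 2) to 9 genes rose. Over these fits 0 to 4 genes fell. No more than 1 fell without ALAS1/2-KO replicate 2, 3 or 4 or without any one of the WT libraries.

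Sex-biased genes were counted because Cyp3a44 is among the female-predominant forms. Outside Cyp3a, 8 of 14 female-biased genes were tested, with a median log2 fold change of 0.65. Of these, 1 rose and 1 fell, against 2.91% and 2.19% of all genes tested. Cyp17a1, a steroid hydroxylase, fell to 9.09 ± 0.88 CPM in ALAS1/2-KO, against 52.5 ± 7.67 CPM in WT (log2 fold change -2.52, limma adjusted p = 0.000105). Hamp2, a relative of hepcidin, rose to 7.83 ± 2.83 CPM in ALAS1/2-KO, against 2.15 ± 0.63 CPM in WT (log2 fold change 1.80, limma adjusted p = 0.0218), but not without ALAS1/2-KO replicate 4 (0.0556), WT replicate 1 (0.0750) or WT replicate 2 (0.118). By limma voom on recovered reads Hamp2 did not pass (adjusted p = 0.0725). Of 19 male-biased genes tested, 2 rose and 7 fell (2.91% and 2.19% of all genes), with a median log2 fold change of -0.30. Ugt2b1, a glucuronosyltransferase, averaged 40.9 ± 14.5 CPM in ALAS1/2-KO and 350.2 ± 20.7 CPM in WT (log2 fold change -3.17, limma adjusted p = 0.00154). Cyp4a12b, a fatty acid hydroxylase with a near-identical copy in Cyp4a12a, averaged 27.3 ± 15.4 CPM in ALAS1/2-KO and 2.29 ± 0.55 CPM in WT (log2 fold change 3.41, limma adjusted p = 0.00641). The complement gene C6 fell by 1.21 on the log2 scale (limma adjusted p = 0.0101, or 0.0704 without WT replicate 2). When 1 library was left out, 1 to 9 male-biased genes fell. The number was 4 without ALAS1/2-KO replicate 2, and 3 without ALAS1/2-KO replicate 4, WT replicate 1 or WT replicate 3. Without WT replicate 2 it was 1.

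**Figure D5:**
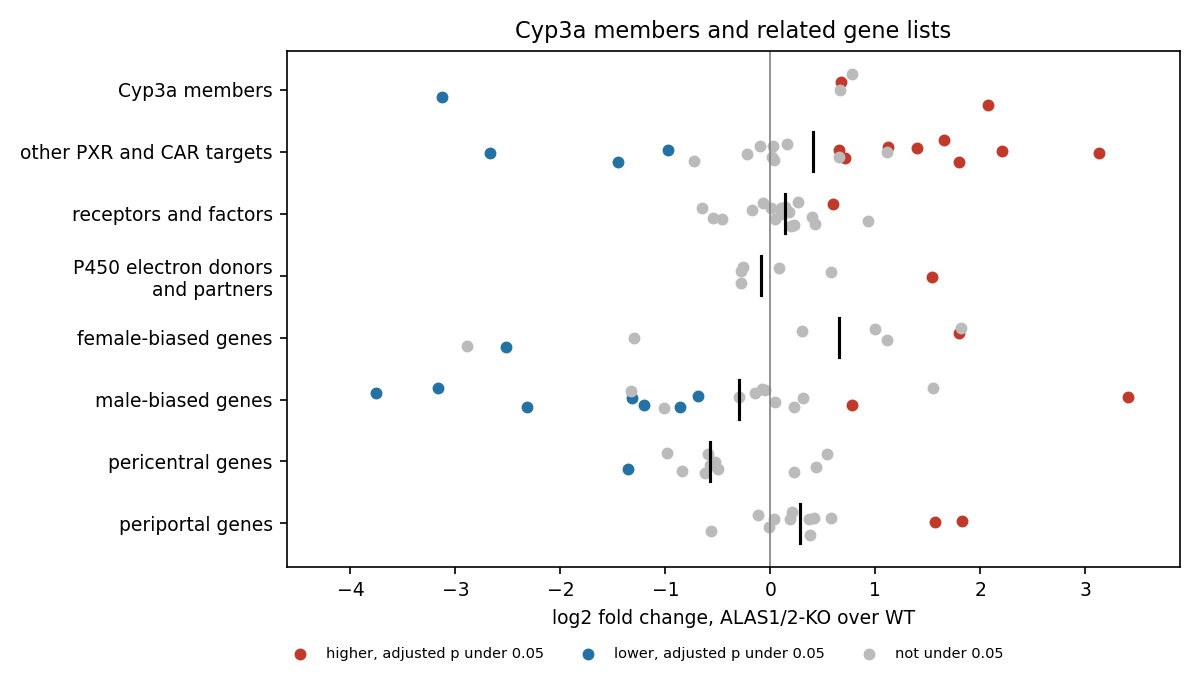
Log2 fold change (ALAS1/2-KO over WT) of each tested gene in 8 lists, coloured by whether the limma adjusted p was under 0.05 and in which direction. Black lines are list medians (none is drawn for Cyp3a). Targets of PXR and CAR had 8 genes higher and 3 lower, and male-biased genes 2 higher and 7 lower. Among all genes tested, 2.91% were higher and 2.19% lower. Heights within a row only separate the points.

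Cyp3a11 is expressed mainly around the central vein, so genes of both ends of the liver lobule were read beside it. Of 11 pericentral genes tested, with a median log2 fold change of -0.57, 1 fell, against 2.19% of all genes tested. This was Lgr5, a receptor in Wnt signalling, with 1.33 ± 0.35 CPM in ALAS1/2-KO and 3.48 ± 0.84 CPM in WT (log2 fold change -1.35, limma adjusted p = 0.0355). Its adjusted p was between 0.0609 and 0.179 without ALAS1/2-KO replicate 3 or 4 or any one of the WT libraries. Of 12 periportal genes tested, with a median of 0.29, 2 rose, against 2.91% of all genes tested. Cyp2f2, a P450, averaged 1292 ± 271 CPM in ALAS1/2-KO and 431 ± 44.6 CPM in WT (log2 fold change 1.57, limma adjusted p = 0.00338). Hsd17b6, a hydroxysteroid dehydrogenase, averaged 108 ± 39.5 CPM in ALAS1/2-KO and 29.9 ± 11.5 CPM in WT (log2 fold change 1.83, limma adjusted p = 0.0353). It did not pass without ALAS1/2-KO replicate 2 (adjusted p = 0.0754), 3 (0.0696) or 4 (0.0740), or without WT replicate 1 (0.109) or 2 (0.153). The fetal genes tested, Afp and Cd24a, averaged 0.90 ± 0.14 and 0.66 ± 0.27 CPM in ALAS1/2-KO, against 1.69 ± 0.74 and 1.70 ± 0.46 CPM in WT. Neither passed (limma adjusted p = 0.220 and 0.101). Cd24a reached 1 CPM in WT alone and so was tested only because of its WT level.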

How the data were processed

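RNA was sequenced from isolated mouse hepatocytes, with 4 ALAS1/2-KO and 3 WT libraries grouped by the sample titles. Libraries were made from Trizol RNA with a TruSeq RNA kit, per the labels' protocols. Per the submitters' processing notes, cutadapt and HISAT2 were used with build mm10. Not given in the sources used here are versions, the read counter, its treatment of multi-mapping reads and the annotation. The authors deposited log2 CPM for 12151 gene symbols. The design had allowed for linear CPM, but the values were log2, so they were tested as deposited. Taken off the log2 scale and with a common floor of 0.0676 CPM subtracted, 100% of values were whole multiples of a fixed step per library, within 0.01 reads, which gave the reads. Library sizes behind the deposited values were 1.07 to 1.18 times the listed reads in ALAS1/2-KO and 0.801 to 1.00 times in WT. Every listed gene reached 0.5 CPM in at least 3 libraries.

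Genes with at least 1 CPM in 3 or more libraries (12105) entered 1 limma fit (limma 3.58.1, R 4.3.3) with robust moderation, a trend on intensity and Benjamini-Hochberg adjustment over all of them. All tests were two-sided. The fits were first tested on simulated data. Single values were compared by exact permutation over all 35 regroupings. As the libraries are not stated to be separate animals, p-values reflect their spread only, possibly a technical one. Fold changes include the deposited floor and understate those of low genes. Transcript lengths, shared windows and positions came from GENCODE (mm10), promoters from RefSeq. Replicate numbers are not stated to pair libraries. The members and gene lists were chosen with earlier results of these data known. Genes named beside the members were up to 3 changed members of each list (by smallest p; the 2 most abundant where none changed), and the 3 non-members most correlated with Cyp3a11 or Cyp3a59. Lists share some genes, such as Cyp2b9. Alternatives varied the filter, pseudocount, scaling, moderation, model and libraries.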

Additional observations from a re-analysis of the deposited data

Results flagged for a closer look

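Among the 30 genes named, 1 had a library apart from the rest of its group. Ces2a, a target of PXR and CAR, had 589 CPM in ALAS1/2-KO replicate 1, against 733, 731 and 728 CPM in ALAS1/2-KO replicates 2 to 4. On the log2 scale, the gap to the nearest other library was 0.969 of the range of the group, above the 95% limit of Dixon's test for 4 samples. Chance flags about 1 in 20 groups. All 4 values were above those of WT, at 173, 185 and 249 CPM. The WT group, with 3 libraries, was not looked at in this way. No Cyp3a member had such a library in ALAS1/2-KO.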

How the results depend on the processing

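The count of 3 changed Cyp3a members includes Cyp3a44, which was tested only because of its WT level. The others were Cyp3a13 and Cyp3a59. The count was 5 with CPM rescaled to listed reads, 5 with limma array weights and 0 with a replicate block. It was 1 to 4 when 1 library was left out, with 1 without WT replicate 1 and 4 without WT replicate 3. No Cyp3a fold change altered its sign under any alternative that gave a value. The rescaling moved the median log2 fold change of all genes from -0.02 to 0.32. Less that median, the log2 fold changes were 0.80 for Cyp3a11, 0.68 for Cyp3a25, 0.69 for Cyp3a13 and 2.09 for Cyp3a59, close to 0.78, 0.66, 0.67 and 2.07 as deposited. The rescaling gained calls for Cyp3a11 and Cyp3a25 (limma adjusted p = 0.0294 and 0.0187). With array weights both also passed (limma adjusted p = 0.0111 and 0.0133), at a median of -0.0046 over all genes. Why these calls were gained was not tested. At a minimum of 5 CPM, Cyp3a44 was not tested. With the summed marker level of other cell types as a covariate, the count was 3.

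The count of 617 changed genes was 2735 with the rescaling, 355 without trend or robust moderation, 2001 with array weights, 72 with the replicate block, 1191 with the marker level as covariate, 1130 without ALAS1/2-KO replicates 1 and 2 together, and 100 to 802 without 1 library. Of the changed genes 57.1% were higher, against 92.6% with the rescaling, 42.4% when scaling ignored mitochondrial genes and the 20 most abundant, and 45.8% with the block. Nr1i3 had a log2 fold change of 0.16 (limma adjusted p = 0.480) with the rescaling, which less the median of all genes was -0.16, against -0.18 as deposited. The rescaling replaces the library sizes behind the deposited values by the listed reads, so it moves all genes of a library nearly alike. What else lies behind these shifts was not tested.

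Deviations of same-numbered libraries correlated at r = -0.03, 0.05 and 0.18, and 2 of 3 ALAS1/2-KO libraries correlated best with the WT library of their own number, so pairing was neither established nor shown to be absent. The block fit, with log2 fold changes of 0.66 for Cyp3a13 (limma adjusted p = 0.0768), 1.95 for Cyp3a59 (0.0768) and -3.18 for Cyp3a44 (0.0525), leaves out ALAS1/2-KO replicate 4, which has no partner. Depth limits Cyp3a44, at 6 to 23 reads in ALAS1/2-KO, and genes below 0.5 CPM were not analysed here.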

Other observations

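Genes whose log2 CPM followed Cyp3a11 most closely over the 7 libraries, among 8785 tested genes that averaged 5 CPM or more, were Taok3, a kinase gene (Pearson r = 0.995), Ubr4, a ubiquitin ligase gene (0.984), and Csnk1g1, a casein kinase gene (0.978). These are given as a description. The 7 libraries include both groups, so a difference between groups enters each r. Taok3 had 28.9, 29.2, 29.8 and 32.8 CPM in ALAS1/2-KO replicates 1 to 4, against 21.5, 23.0 and 29.0 CPM in WT replicates 1 to 3. Like Cyp3a11 it was highest in ALAS1/2-KO replicate 4, and WT replicate 3 stood apart from the other WT libraries. None of these genes passed in limma (adjusted p = 0.170, 0.225 and 0.132 for Taok3, Ubr4 and Csnk1g1), although Csnk1g1 did without WT replicate 3 (0.0387).

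The genes closest to Cyp3a59 were Mtor, the kinase of the TOR complexes (Pearson r = 0.989), Setd1b, a histone methyltransferase gene (0.985), and Frrs1, a ferric reductase gene (0.985). They were picked for following Cyp3a59, which did not overlap between groups, so a group difference in them was largely fixed by the choice. Their limma values are a description and no separate result. Mtor averaged 39.8 ± 2.51 CPM in ALAS1/2-KO and 26.1 ± 3.32 CPM in WT (log2 fold change 0.61, limma adjusted p = 0.0234). It did not pass without ALAS1/2-KO replicate 3 (0.0536) or 4 (0.0597), or without WT replicate 1 (0.0750) or 2 (0.1201). Setd1b averaged 18.1 ± 1.54 CPM in ALAS1/2-KO and 11.6 ± 2.49 CPM in WT (log2 fold change 0.66, limma adjusted p = 0.0430). Its adjusted p was 0.0506, 0.0586, 0.0832 and 0.0984 without ALAS1/2-KO replicates 1 to 4, and 0.141 and 0.190 without WT replicates 1 and 2. By limma voom on recovered reads Setd1b did not pass (adjusted p = 0.0530). Frrs1 did not pass (limma adjusted p = 0.0855).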
